A study of Mus musculus with 6 samples.

Results

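ETS transcription factors are proteins that share a DNA-binding domain, the ETS domain, and 10 of them are described here in follicular B cells: Ets2, Ets1, Elf1, Elf2, Elf4, Fli1, Spi1, Elk3, Gabpa and Etv6. The 10 genes were chosen by name from 20458 gene names, with earlier results of the same comparison known, so they were in effect selected on the expression values given here, Ets2 foremost, and their values are a description with no test. The samples were follicular B cells of C57BL/6 mice, sorted as B220+, AA4.1-, CD23+ and CD21 low, 3 samples from CD23Cre+Myh9wt/fl mice (wt/fl) and 3 from CD23Cre+Myh9fl/fl mice (fl/fl). Myh9 encodes the heavy chain of non-muscle myosin IIa. Both genotypes carry Cre recombinase driven by the promoter of CD23 (Fcer2), which is active from the transitional stage of B cells in the spleen. Cre removes exon 3 of Myh9 from 1 allele in wt/fl cells and from both alleles in fl/fl cells, so that the wt/fl group is haploinsufficient for myosin IIa and is not wild type. For ex vivo analysis, the study's methods give mice of both sexes, adolescent to young adult by their ages in weeks. For in vitro experiments they give a wider range of ages and no sex. The ages for the sequenced samples are not given apart. Amplified RNA was sequenced, and the authors deposited 1 expression value per genotype, pooled over the 3 samples, in FPKM (sequenced fragments divided by the length of the transcript and by library size). The pooled values show no spread between samples, so that the differences below are not set against replicate error; the authors' own test results were not used here.

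In the textbook view, ETS proteins bind DNA around the core sequence GGAA and act with partner proteins on promoters and enhancers. Ets1, PU.1 (the product of Spi1), Spi-B and Fli1 are known for their roles in the development and function of B cells. Several family members, Ets1, Ets2 and the ternary complex factors Elk1, Elk3 and Elk4 among them, are phosphorylated by kinases of the RAS-ERK pathway.

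Myh9 itself was lower in the fl/fl samples, the genotype whose label gives both alleles as floxed. Its pooled FPKM was 50.6 in wt/fl cells and 21.1 in fl/fl, which is 41.7% of the wt/fl value and a log2 ratio of -1.22. This value covers the whole transcript and not exon 3 alone. All log2 ratios here are fl/fl over wt/fl after adding a pseudocount of 1 FPKM to each value, which understates the difference of genes with low values.

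All 10 ETS genes had values, Spi1 under its older symbol Sfpi1, and all 10 passed the minimum mean of 1 FPKM. Ets2 was lower in fl/fl by more than 1.5-fold, and the other 9 were within 1.5-fold of their wt/fl value. Thus 1 of 10 was lower by at least 1.5-fold, beside 1.53% of the 9866 genes compared (151 genes). None of the 10 was higher by at least 1.5-fold, beside 0.791% of the genes compared (78 genes). The median log2 ratio was -0.01 over the 10 genes and 0.00 over all genes compared. Without Ets2, the log2 ratios lay between -0.34 (Etv6) and 0.19 (Elk3).

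**Figure D1:**
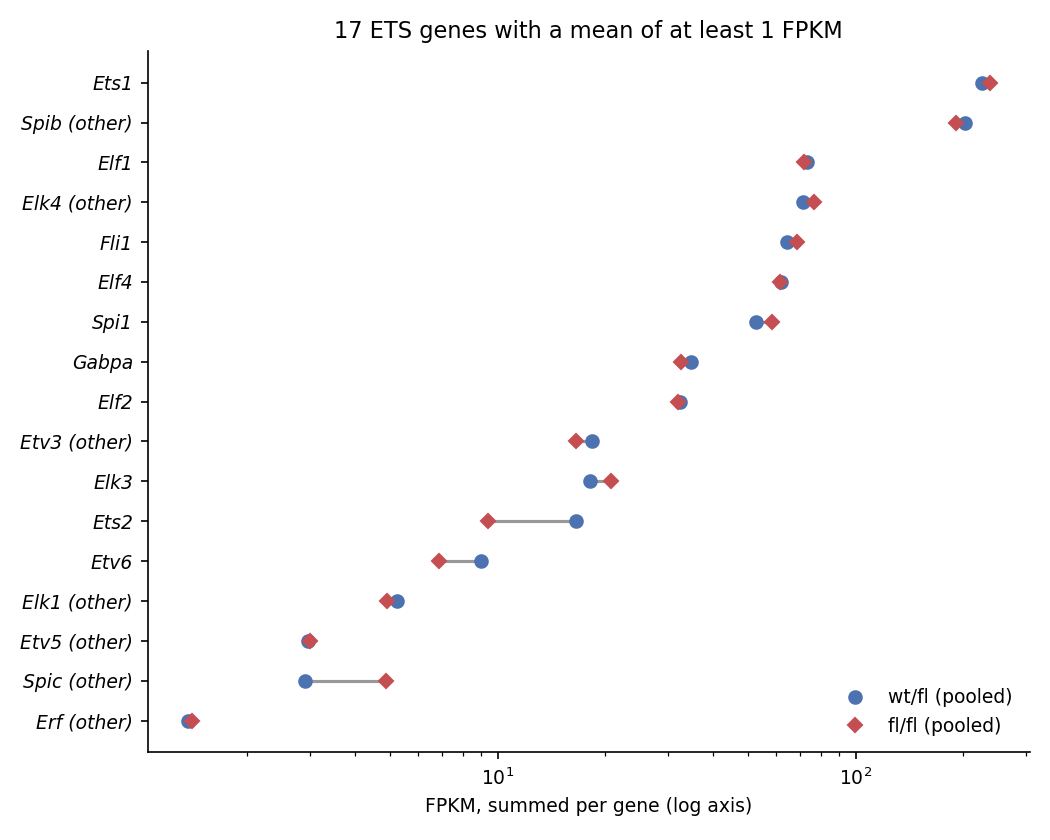
Pooled FPKM of the 17 ETS genes that average at least 1 FPKM (log axis), with wt/fl as circles and fl/fl as diamonds joined by a line; genes outside the list of 10 are marked as other. Ets2 and Spic have the longest lines, Ets2 toward a lower value in fl/fl (16.6 to 9.42) and Spic toward a higher one (2.89 to 4.89).

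Ets2, a RAS-ERK-responsive activator and the closest relative of Ets1, had a pooled FPKM of 16.6 in wt/fl cells and 9.42 in fl/fl. The fl/fl value was 56.7% of the wt/fl value, a log2 ratio of -0.76. Of the 9866 genes compared, 77 (0.78%) had a ratio as low as that of Ets2 or lower. Among the 2569 genes whose wt/fl FPKM lay within 1.5-fold of that of Ets2, 17 (0.662%) did. Ets2 was a minor ETS gene in both genotypes, at rank 12 of the 26 mouse ETS genes in each. It gave 1.86% of the FPKM summed over the family in wt/fl cells and 1.05% in fl/fl. Elk3, the gene next above it among the 10, was 1.09-fold higher than Ets2 in wt/fl cells and 2.21-fold higher in fl/fl.

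Transcripts of neutrophils and red blood cells were also lower in the fl/fl samples. Of 18 neutrophil markers, 17 were found and 10 passed the minimum. Of these 10, 8 were lower by at least 1.5-fold, beside 1.53% of all genes compared. Among the 8, Ltf (2.31 and 0.118) passed only through its wt/fl value. Csf3r (2.32 and 1.51) and Cxcr2 (5.99 and 4.96) were within 1.5-fold. The FPKM summed over the neutrophil list was 392 in wt/fl cells and 74.8 in fl/fl. Its most abundant gene, the calcium-binding protein gene S100a9, stood at 175 and 34.5, and its partner S100a8 at 145 and 25.8. The granule protein genes Ctsg and Fcnb were listed at 0 in both genotypes, and Elane and Mpo in fl/fl. Erythroid markers summed to 101 in wt/fl cells and 14.1 in fl/fl, with the globin transcript Beta-s the most abundant at 52.0 and 7.08. The alpha globin genes Hba-a1 and Hba-a2, which share a name in the table, stood at 25.8 and 3.05 summed, and the beta globin genes Hbb-b1 and Hbb-b2, which share another, at 19.2 and 3.23. All 3 erythroid gene names above the minimum were lower by at least 1.5-fold, beside 1.53% of all genes compared. Gata1 was listed at 0 in both genotypes. Of 8 macrophage and monocyte markers above the minimum, 1 was lower by at least 1.5-fold, beside that same share. It was the lysozyme gene Lyz2 (72.6 and 44.9). The markers next in abundance, Cd68 (7.41 and 6.10) and Ly6c2 (3.56 and 2.68), were within 1.5-fold. The summed level of that list was 97.3 in wt/fl cells and 66.7 in fl/fl. The part of these cells in the Ets2 difference was not tested. In sorted populations of this kind, fewer cells of a type and less RNA per cell cannot be told apart.

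Summed over each list, B cell markers stood far above the markers of other cells in both genotypes. Single genes overlapped: in wt/fl cells S100a9 (175) stood above the B cell marker Ebf1 (171). The 12 B cell markers summed to 6785 FPKM in wt/fl cells and 7225 in fl/fl. None of the 12 differed by 1.5-fold, near the share over all genes compared (1.53% lower and 0.791% higher). Cd79b, a chain of the B cell receptor, was the most abundant at 1638 and 1739, followed by Cd79a and Cd37 (834 and 877). The genes of the sort were in place as well. Ptprc (CD45, of which B220 is a form) stood at 467 and 575, Fcer2a (CD23) at 439 and 588, and Cr2 (CD21) at 177 and 198. Cd93, the gene of the AA4.1 antigen used to leave out immature cells, stood at 3.28 and 4.23.

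**Figure D2:**
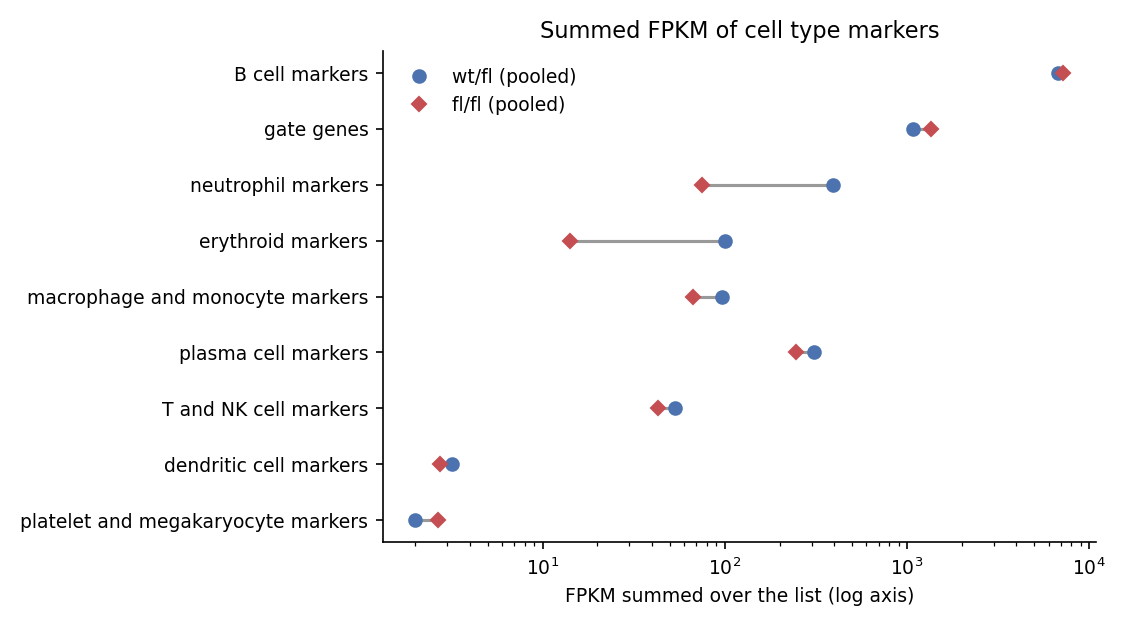
FPKM summed over each list of cell type markers (log axis), with wt/fl as circles and fl/fl as diamonds. B cell markers lie at 6785 and 7225, while neutrophil markers (392 and 74.8) and erythroid markers (101 and 14.1) show the widest gaps between genotypes.

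Other markers followed with smaller sums. T and NK cell markers summed to 53.5 in wt/fl cells and 43.0 in fl/fl, with Lck (14.5 and 14.5) and Gzma (16.8 and 12.1) the most abundant. Of 7 above the minimum, 1 was lower by at least 1.5-fold, beside 1.53% of all genes compared. It was the NK granule gene Nkg7 (9.01 and 5.33). Plasma cell markers summed to 307 and 248, mostly from Mzb1 (189 and 140), Irf4 (60.8 and 58.9) and Xbp1 (48.8 and 45.9). Irf4 is also counted among the ETS partner genes below, so the sum is no measure of plasma cells alone. Of the 5 plasma cell markers above the minimum, 2 were lower by at least 1.5-fold, beside 1.53% of all genes compared. They were Igj (5.40 and 0.617), which encodes the J chain, and Sdc1 (2.30 and 1.13), which encodes CD138. Igj passed the minimum only through its wt/fl value, so nothing about plasma cells is drawn from this count. Tnfrsf17, which encodes the plasma cell receptor BCMA, was listed at 0 in both. Dendritic cell markers (3.20 and 2.74) had no gene above the minimum. Platelet and megakaryocyte markers (2.00 and 2.67) had 1 above it, Ppbp, at 1.43 and 1.38. The part of these cells in the ETS values was not tested.

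Ets1 was the most abundant ETS gene, at 226 FPKM in wt/fl cells and 237 in fl/fl. In B cells Ets1 is known to restrain differentiation into plasma cells. The table splits Ets1 into 2 entries, each a group of transcripts with a coding sequence in common, and their proportion differed between the genotypes. The first entry stood at 164 in wt/fl cells and 160 in fl/fl, a log2 ratio of -0.04. The second stood at 61.6 and 77.2, a log2 ratio of 0.32, and its share of the gene's FPKM was 27.3% in wt/fl cells and 32.6% in fl/fl. Which transcripts make up each entry, and how precise the split between the entries is, were not determined here. The sum of Ets1 and Ets2 was 243 in wt/fl cells and 246 in fl/fl, so that this branch of the family had nearly the same summed level in both.

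The SPI branch had the highest summed FPKM, 258 in wt/fl cells and 253 in fl/fl. Spi1, which encodes PU.1, a factor of both myeloid and B cells, stood at 52.8 in wt/fl cells and 58.3 in fl/fl, a log2 ratio of 0.14. Spib, which encodes the related B cell factor Spi-B, stood at 203 and 190 and ranked behind only Ets1 in the family in both genotypes. Spic, known for its role in red pulp macrophages, was the single ETS gene of the 17 compared that was higher by at least 1.5-fold. Over all genes compared the share was 0.791%. Spic was low in both genotypes and just past 1.5-fold. Its FPKM was 2.89 in wt/fl cells and 4.89 in fl/fl, a log2 ratio of 0.60. The 8 macrophage and monocyte markers above the minimum had a median log2 ratio of -0.20, with a range from -0.68 (Lyz2) to 0.38 (the complement gene C1qb), and the list mixes markers of macrophages with others that monocytes and granulocytes share. The part of macrophages in the Spic value was not tested.

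The 3 ELF genes, whose products bind ETS motifs in many lymphocyte genes, had nearly equal values in both genotypes. Elf1 stood at 73.3 FPKM in wt/fl cells and 71.8 in fl/fl, Elf2 at 32.4 and 31.8, and Elf4 at 61.7 and 61.5. Their log2 ratios were -0.03, -0.02 and -0.00. Fli1, an ERG-branch factor that lies beside Ets1 on chromosome 9, stood at 64.4 and 68.6, a log2 ratio of 0.09. Elk3, a ternary complex factor that binds DNA with SRF, stood at 18.1 and 20.8, a log2 ratio of 0.19 and the highest of the 10. Its relatives Elk4 (71.4 and 76.5) and Elk1 (5.23 and 4.91) had log2 ratios of 0.10 and -0.07.

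Gabpa, the DNA-binding subunit of GABP, a regulator of many housekeeping and mitochondrial genes, stood at 34.7 FPKM in wt/fl cells and 32.6 in fl/fl, a log2 ratio of -0.08. Etv6, which encodes the repressor TEL, was the least abundant of the 10, with 8.97 in wt/fl cells and 6.87 in fl/fl. Its fl/fl value was 76.6% of the wt/fl value, a log2 ratio of -0.34, second to Ets2 in distance from 0. The repressor gene Etv3 stood at 18.3 and 16.6, Erf at 1.36 and 1.40, and Etv5 of the PEA3 branch at 2.95 and 2.99. The remaining 9 ETS genes were under the minimum, none above 0.315 FPKM, and Fev and Etv2 were listed at 0 in both genotypes.

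In wt/fl the order of the 10 genes from high to low was Ets1, Elf1, Fli1, Elf4, Spi1, Gabpa, Elf2, Elk3, Ets2 and Etv6, and it was the same in fl/fl. Ets1 stood 3.09-fold above Elf1 in wt/fl cells and 3.30-fold in fl/fl. Elf1 and Fli1 were 1.14-fold apart in wt/fl cells and 1.05-fold in fl/fl, and Gabpa and Elf2 1.07-fold and 1.03-fold. Which neighbours differ beyond their spread cannot be said from pooled values. The FPKM summed over all 26 ETS genes was 894 in wt/fl cells and 897 in fl/fl, and 878 and 887 without Ets2.

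**Figure D3:**
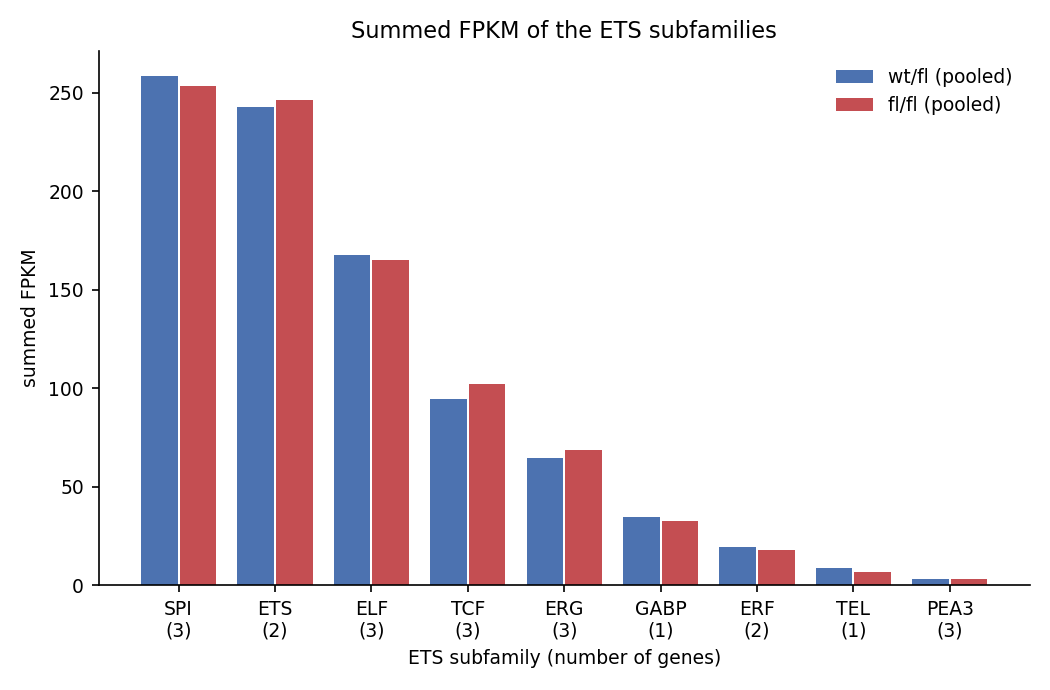
FPKM summed over the genes of each ETS branch in wt/fl (blue bars) and fl/fl (red bars), for branches with at least 1 FPKM; the number of genes is in parentheses. The SPI branch (258 and 253) and the ETS branch (243 and 246) are the tallest, and no branch shown differs by 1.5-fold.

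**Figure D4:**
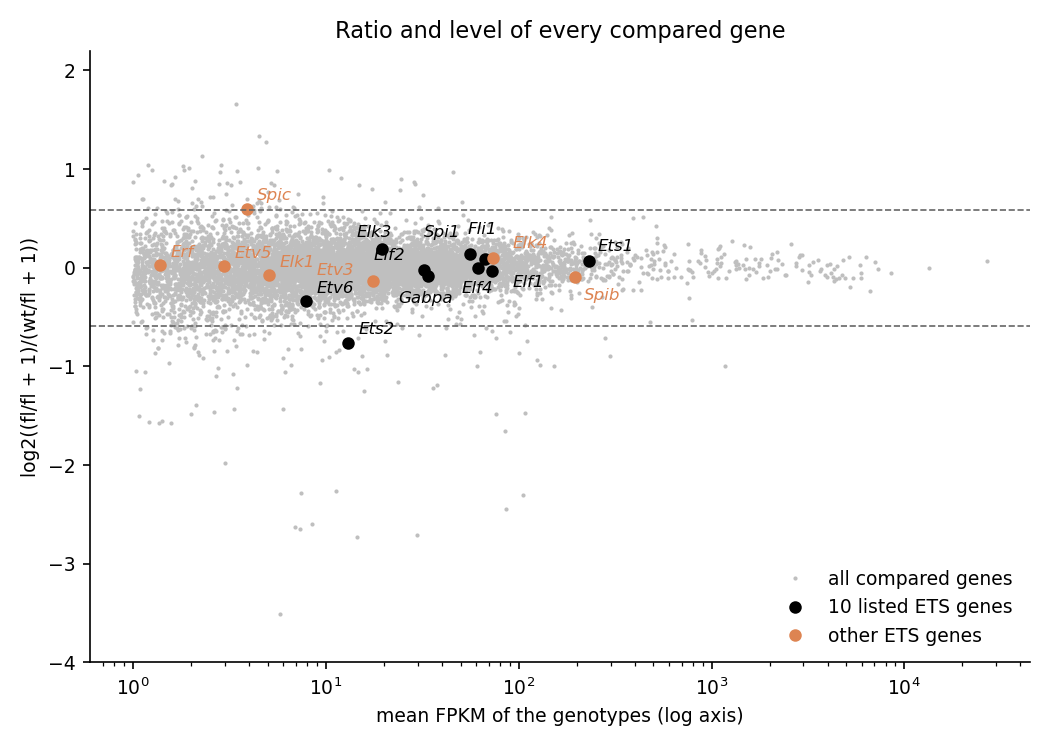
Log2 ratio against mean FPKM (log axis) of the 9866 genes compared (grey), with the 10 listed ETS genes in black and the other ETS genes above the minimum in orange; dashed lines mark 1.5-fold. Ets2 (-0.76) lies below the lower line, Spic (0.60) just above the upper one, and the other ETS genes between the lines.

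The promoter letters of these genes are shown because the ETS core is the element that the family itself binds. RefSeq promoter windows, the 250 bases before each annotated start on GRCm38.p6, were matched by symbol for 7 of the 10 genes; Ets1, Fli1 and Spi1 had none. The core GGAA, read on both strands, was found in 93.4% of all 32851 windows and once in that of Ets2, 5 times for Gabpa, 3 times for Etv6 and 2 times for Elk3. Elf1, Elf2 and Elf4 have 2 windows each, with 2 and 0 matches for Elf1, 1 and 6 for Elf2, and 6 and 2 for Elf4. The longer motif CGGAAG, which contains the core, was found in 13.6% of all windows. Among the 7 genes it was found in a window of Elf2 and in that of Gabpa, and among the other ETS genes in windows of Elk4 and Etv3. The stretches below give each CGGAAG match of the 7 genes and the core match of Ets2, with up to 10 bases on either side and the match in capitals, read on the strand that carries the motif.
Ets2, chr16:95702392-95702406, minus strand: gGGAAccgggggagg
Gabpa, chr16:84835021-84835046, minus strand: ctgagggaccCGGAAGcacttaccct
Elf2, chr3:51277653-51277678, plus strand: tcacgttctgCGGAAGcgaagtctgc
Elf2, chr3:51277515-51277536, minus strand: gggcgcggggCGGAAGgatcgc
The match of Ets2 lies 5 bases before the RefSeq start. In GENCODE M21 the stretch printed for Ets2 overlaps an Ets2 exon, since that annotation starts the gene farther upstream. The match of Gabpa lies in a stretch where exons of Gabpa and of Atp5j are annotated. The first Elf2 stretch overlaps an intron of Elf2 and the second an Elf2 exon, and both overlap an exon of 4930577N17Rik. The GC box GGGCGG, present in 32.7% of all windows, was found in windows of 6 of the 7 genes, once each for Ets2, Etv6, Elk3 and Elf1 and more often for Elf2 and Elf4, and not in that of Gabpa. The AP-1 motif TGANTCA, in 6.75% of all windows, was found in windows of Elf1, Elf2 and Elf4 and not in that of Ets2. Neither the CArG box bound by SRF (1.47% of all windows) nor the p53 half-site (7.13%) was found in a window of the 7 genes. These are matches of letters, and no binding was measured. Of the 7 genes, Gabpa (log2 ratio -0.08) and Elf2 (-0.02) have the longer motif, and Ets2 (-0.76), Etv6 (-0.34), Elf1 (-0.03), Elf4 (-0.00) and Elk3 (0.19) do not.

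Of 13 genes that encode partner proteins of ETS factors, none differed by 1.5-fold, which is near the share over all genes compared (1.53% lower and 0.791% higher). Their median log2 ratio was 0.04, beside 0.00 over all genes compared. The most abundant by the mean of the genotypes were the B cell factor Pax5 (357 FPKM in wt/fl cells and 373 in fl/fl), Irf8, which binds DNA with PU.1 (106 and 109), and the coactivator gene Crebbp (64.7 and 66.8). The GABP beta subunit genes Gabpb1 (27.7 and 29.7) and Gabpb2 (35.4 and 34.7) stood near the level of Gabpa.

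Upstream of the family, none of 23 RAS-ERK pathway genes differed by 1.5-fold, which is near the share over all genes compared (1.53% lower and 0.791% higher). The median log2 ratio of the 23 was 0.06. The most abundant was Rasgrp3, an activator of RAS in B cells, at 124 in wt/fl cells and 156 in fl/fl, a log2 ratio of 0.33. The kinase gene Map2k1 stood at 71.7 and 80.3, and Rasgrp1 at 65.8 and 67.3. The scaffold gene Ksr1 had the highest log2 ratio of the list, 0.47, at low values of 1.02 and 1.81, and with a pseudocount of 0.5 the log2 ratio was 0.60, past 1.5-fold.

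Targets of the ternary complex factors and SRF, mostly immediate-early genes, varied in both directions, and their median log2 ratio was 0.11. None of 10 was past 1.5-fold, which is near the share over all genes compared (1.53% lower and 0.791% higher). Mcl1, a survival gene, was the most abundant at 307 and 324, followed by Ier2 at 41.3 and 53.1 and Junb at 22.1 and 21.3. Within the list, Fos (13.1 and 9.02) had a log2 ratio of -0.50 and Egr1 (16.6 and 20.8) one of 0.31. None of 11 targets of SRF with its actin-regulated cofactors, the MRTFs, differed by 1.5-fold, again near that share. The median log2 ratio of the 11 was 0.11. The actin genes Actb (2800 and 3074) and Actg1 (529 and 615) and the tropomyosin gene Tpm4 (237 and 238) were the most abundant.

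Genes known as targets of Ets2 or Ets1 in other cells were mostly low in these B cells, and 4 of 10 passed the minimum. Of the 4, the survival gene Bcl2l1, which encodes Bcl-xL, was lower by at least 1.5-fold, beside 1.53% of all genes compared. It stood at 1.76 FPKM in wt/fl cells and 0.785 in fl/fl. Bcl2l1 passed the minimum only through its wt/fl value, so nothing about the targets is drawn from this count. Its log2 ratio was -0.63, and -0.57 after quantile normalization, which is within 1.5-fold. Myc stood at 45.7 and 46.4 and Icam1 at 22.0 and 21.3, while the cyclin gene Ccnd1 stood at 1.55 and 2.16. The median of the 4 was -0.01. Under the minimum, Mmp9 (1.19 and 0.253), Plau (0.188 and 0.0255) and Prdm1 (1.07 and 0.899) were lower in fl/fl, and Anpep (0.145 and 0.216) was higher. Mmp3 and Cdkn2a were listed at 0 in both genotypes. Mmp9 is also on the neutrophil list, and nothing is drawn from values this low.

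None of 10 B cell targets of PU.1 and Spi-B differed by 1.5-fold, which is near the share over all genes compared (1.53% lower and 0.791% higher). The median log2 ratio of the 10 was -0.03. Cd79b was followed by Cd79a (1098 and 1115) and the adaptor gene Blnk (176 and 170). The lowest log2 ratios of this list were -0.46 for the inhibitory receptor gene Fcgr2b (75.5 and 54.6) and -0.41 for the kinase gene Syk (169 and 127). None of 8 GABP targets differed by 1.5-fold, again near that share, with a median of 0.06. They were led by the respiratory chain genes Atp5b (608 and 668), Cox4i1 (395 and 426) and Cox5b (191 and 190).

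**Figure D5:**
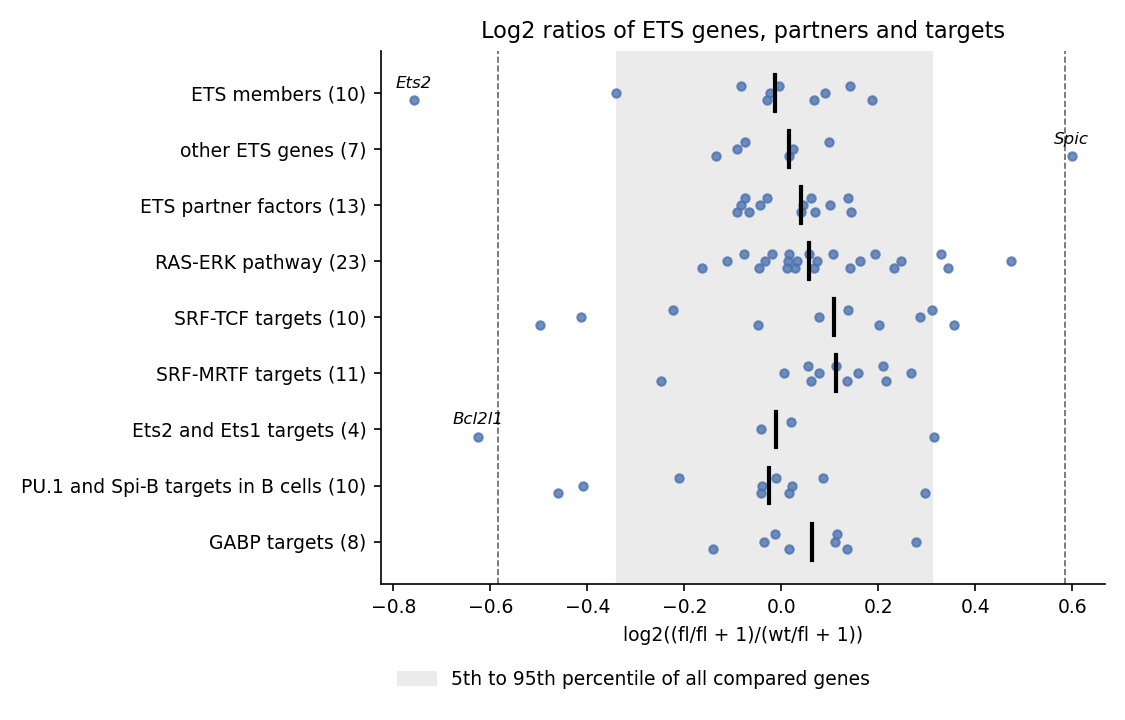
Log2 ratio of each gene above the minimum (points) and the list's median (black bars) for ETS genes, partners, the RAS-ERK pathway and target lists, with the number of genes in parentheses; the grey band spans the 5th to 95th percentile of all genes compared (-0.34 to 0.31) and dashed lines mark 1.5-fold. Ets2, Spic and Bcl2l1 are the points beyond the dashed lines, and every median lies within the band. Bcl2l1 passed the minimum only through its wt/fl value.

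Genes that lie near Ets2 on chromosome 16 did not share its ratio. Of 8 other genes that start within 500 kb, 4 passed the minimum. Psmg1 stood at 21.2 FPKM in wt/fl cells and 18.9 in fl/fl (log2 ratio -0.16), Brwd1 at 172 and 161 (-0.10), Hmgn1 at 211 and 217 (0.04) and Wrb at 7.89 and 6.92 (-0.17). The others, Kcnj15, Erg, Lca5l and Sh3bgr, were under the minimum. Ets1 and Fli1 start 274 kb apart on chromosome 9, and the other genes within 500 kb of either, Kcnj5, Kcnj1 and Arhgap32, were under the minimum.

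The 5 genes most like Ets2, by the smallest difference in log2 ratio among the 2569 genes of similar wt/fl level, were Zfp53 (12.4 and 7.01), 1700030K09Rik (18.4 and 10.9), Car2 (11.7 and 6.91), Dusp1 (15.3 and 8.12) and Crem (14.8 and 7.74). Their log2 ratios were between -0.85 (Crem) and -0.69 (Car2). The likeness rests on 2 pooled values per gene.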

How the data were processed

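The authors sequenced amplified RNA (Ovation V2, TruSeq Nano libraries) and deposited FPKM for each set of transcripts with a common coding sequence, in the layout of Cuffdiff, with 1 value per genotype pooled over 3 samples. The submitters' processing notes name Bowtie, TopHat and Cufflinks, without versions, and mm10 (GRCm38). The table's positions are not those of that build: 12.8% of the 18791 genes on the same chromosome in both overlap their GRCm38.p6 position, and 118 entries lie on sequences named as random. Table positions were therefore used for distances between genes only, and promoter windows come from RefSeq on GRCm38.p6. The deposited table also holds the authors' own comparison (log2 fold change, test statistic, p-value, q-value, a significance call and a test status), which was not used.

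FPKM was summed per gene name over 25017 entries. The 44 entries whose symbol reads as a date were left out of the comparison, and the 9866 genes averaging at least 1 FPKM were compared as log2((fl/fl + 1)/(wt/fl + 1)). The minimum is on the mean of the genotypes, so Bcl2l1, Igj and Ltf, among others, passed it through their wt/fl value alone. The summed FPKM was 595296 in wt/fl cells and 596105 in fl/fl. Read depth is not given. Low values multiplied by transcript length clustered near 0.0316 in wt/fl cells and 0.0315 in fl/fl (247 and 361 genes), but the clusters were too broad to give read counts. No test was run, since each genotype has 1 value. The precision of a value is unknown.

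Members, gene lists and alternatives were chosen with earlier results of these data known, and the split into ETS branches was written after the values were seen. Named were Myh9, the 10 genes, those of the other 16 ETS genes that passed the minimum (7), the 3 most abundant genes of each list and any past 1.5-fold, the genes of the sort, genes within 500 kb of Ets2, Ets1 or Fli1, and the 5 genes most like Ets2. As exceptions to this rule, Camp, Retnlg, Ngp, Lcn2 and Chi3l3 of the neutrophil list are counted and not described, and genes of the dendritic cell and platelet lists under the minimum are not named. The alternatives for Myh9, Spic, Bcl2l1 and Ksr1 were added after the values were seen. Ksr1, Fos, Egr1, Fcgr2b, Syk, C1qb, Gabpb1 and Gabpb2 were named after their values were seen, as were the genes named for being listed at 0. So were Csf3r, Cxcr2, Ebf1, Mmp9, Plau, Prdm1 and Anpep. Genes were matched by symbol or by an older symbol in RefSeq. Alternatives were other pseudocounts (0.5 and 0.1), upper quartile scaling, centring on the median log2 ratio, quantile normalization, a lower and a higher fold threshold, no minimum or a mean of at least 5 FPKM, and entries not summed. A log2 ratio was counted as moved from 0.1 on, a tolerance set by hand. Computations used Python 3.11.15, numpy 2.4.6, pandas 2.3.3 and matplotlib 3.10.9, and were tested on simulated data.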

Additional observations from a re-analysis of the deposited data

How the results depend on the processing

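The log2 ratio of Ets2 lay between -0.81 and -0.75 under other pseudocounts and scalings, and those of the other 9 genes moved by at most 0.05 in 45 recomputations. The median over the 10 genes moved by less than the tolerance throughout. The count of 1 lower gene became 2 at the lower fold threshold, beside 5.48% of all genes, and 0 at 2-fold, beside 0.405%, as the change of threshold itself brings about. The share of all genes lower by 1.5-fold was 2.59% with a pseudocount of 0.1, 0.974% with no minimum, 0.867% at a mean of at least 5 FPKM and 3.37% over single entries, with 1 of the listed genes (or entries) lower each time. The count of 0 higher genes held under each alternative. With the 10 genes in place of all 26 ETS genes as the total, the share of Ets2 was 2.82% in wt/fl cells and 1.57% in fl/fl, since the total is smaller. Alternatives for Myh9, Spic, Bcl2l1 and Ksr1 were added after seeing the data: Myh9 stayed between -1.26 and -1.22, and Spic was 0.74, Bcl2l1 -1.07 and Ksr1 0.77 with a pseudocount of 0.1. With that pseudocount, 2 of 8 macrophage and monocyte markers, 2 of 7 T and NK cell markers and 9 of 10 neutrophil markers were lower by 1.5-fold. No paired analysis was possible because the values are pooled over the samples of a genotype; for the same reason no sample could be left out.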
